A study of Mus musculus with 16 samples.

Results

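The 8 Lhx1-null cultures of the profiling, 4 collected at day 6 and 4 at day 5 of DE (definitive endoderm) differentiation, are compared here between the days, out of 16 cultures in all. They were chosen by genotype alone. The other 8 cultures are wild-type (Lhx1+/+), 4 at each day. The null (Lhx1-/-) and wild-type ES cell lines were derived from blastocysts of Lhx1Δ/+ intercrosses, and the Δ allele lacks exons 2 and 3. All cultures received ActivinA and EGF in N2B27 medium without LIF, so no untreated culture is part of the comparison. By the methods there were 4 independent null lines, but the labels do not say which line a replicate number stands for or whether each line was sampled at both days. By their titles the null day 6 cultures are replicates 1 to 4, whereas the descriptions of replicates 3 and 4 both say replicate 2, and the titles were used.

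Lhx1 is a LIM homeodomain transcription factor of the anterior primitive streak, the axial mesendoderm and the visceral endoderm. It is required for formation of the head. High doses of ActivinA mimic Nodal and drive ES cells through a streak-like state, marked by Eomes and Mixl1, toward DE, marked by Sox17, Foxa2 and Cxcr4. Anterior DE is marked by Hhex and Cer1. Cells that receive more Bmp than Nodal signal take lateral plate or extraembryonic mesoderm fates, with Bmp4, Msx1 and Tbx factors among their genes.

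RNA was read on Illumina Mouse WG-6 v2 arrays. Values are log2 intensities after background correction and quantile normalization, and the scale adds an offset of 16 and so understates differences of dim genes. The filter on dim probes left 10939 genes, of which 1995 are probes without a symbol. Null day 6 arrays had 12194 to 15453 probes above background, and null day 5 arrays had 10734 to 15319 (p = 0.8, exact permutation test, 2-sided). Replicate 3 had the fewest probes above background in each of the 4 groups, and whether these arrays share a step of processing is not given in the sources used here. The precision is limited by the 4 cultures in a group, and p-values measure only the spread between cultures, which may be technical. Each gene has a variance pooled over null and wild-type cultures, which sets all SEs, intervals and p-values of the main fit. Where null cultures spread more than wild-type cultures these SEs understate the null spread, and where they spread less they overstate it. Foxa1 had an SD within a day of 1.06 in null and 0.56 in wild-type cultures, and Hhex 0.19 and 0.65. The null SD was the larger for 6026 genes (55.1%).

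Null day 6 replicate 2 and null day 5 replicate 4 stood apart from the other 6 null cultures. On the first principal component of the 8 null arrays, which held 38.2% of the variance, they lay at 55.4 and 56.8, whereas the others lay between -36.9 and -1.03. They were each other's nearest culture over all genes (Pearson r = 0.969). This pair was low in Lhx1 itself. By probe ILMN_1225672 Lhx1 had intensities of 14.03, 9.76, 13.10 and 13.84 at day 6, against 13.67, 13.43, 14.49 and 8.15 at day 5 (replicates 1 to 4). By probe ILMN_2716543 it had 13.39, 8.93, 12.39 and 13.26 at day 6, against 12.68, 12.65, 13.83 and 7.70 at day 5. The days overlapped with either probe (p = 0.83 and 0.771, exact permutation test, 2-sided, smallest possible p 0.0286). Both probes were above background in all 8 null cultures. The files do not place the probes on the gene, so whether they lie in exons 2 and 3 is unknown and these values do not check the genotype.

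No gene passed the test between day 6 and day 5 in null cultures. Of 10939 genes, 0 (0%) had an adjusted p under 0.05 in either direction by limma with Benjamini-Hochberg adjustment, and the lowest adjusted p was 0.99962. At an unadjusted p under 0.05 there were 445 (4.07%), 235 with a higher mean at day 6 (2.15%) and 210 with a lower one (1.92%). Single cultures moved this count, which was 258 (151 higher and 107 lower) without day 5 replicate 3 and 848 (512 higher and 336 lower) without day 5 replicate 4, and the split was 179 higher and 285 lower without day 5 replicate 2. With the rank invariant values of the authors this split was 914 higher and 19 lower, and that scaling put the median difference of all genes at 0.12 instead of -0.02, and again 0 genes passed. In 114 genes all 4 day 6 cultures lay above all 4 day 5 cultures (1.04%), and in 139 all lay below (1.27%). Of these, 63 (0.576%) and 72 (0.658%) also had an unadjusted p under 0.05. Wild-type cultures likewise had 0 genes past the test (133 at an unadjusted p under 0.05, 1.22%, and 42 genes above and 68 below without overlap, 0.384% and 0.622%), and the difference of the day effect between genotypes passed for 0 genes (106 at an unadjusted p under 0.05, 0.969%).

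The difference between days was smaller than the spread between cultures of 1 day for most genes. Its absolute value had a median of 0.17 in null and 0.15 in wild-type cultures, whereas the median SD within a day was 0.36 in null and 0.33 in wild-type cultures. For 8842 genes (80.8%) the null day difference was below the null SD within a day. The 95% interval, from the variance pooled over both genotypes, reached a median of 0.54 to either side of the difference. It lay within 1 log2 unit of 0 for 7630 genes (69.8%). For the remaining genes the interval reached past 1 log2 unit. Null cultures held more genes with a large mean difference than wild-type cultures did, 212 against 52 beyond 1 log2 unit, and more genes with an SD above 1, 759 against 424.

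**Figure D1:**
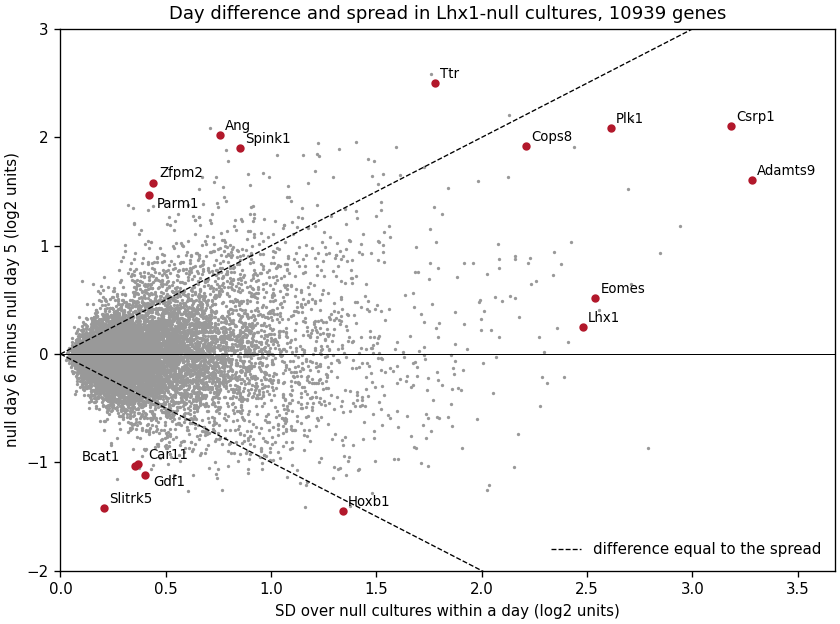
Each point is 1 of 10939 genes, with the SD over null cultures within a day on the x axis and the mean of null day 6 minus the mean of null day 5 on the y axis, both in log2 units. Between the dashed lines the day difference is smaller than the spread, as for 8842 genes; Zfpm2, Parm1 and Slitrk5 lie outside, and Lhx1, Eomes and Adamts9 lie far to the right.

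Arrays of the same day were not more alike than arrays of different days. Pearson correlations over all genes had a median of 0.929 in the 12 same-day pairs (0.878 to 0.968) and 0.936 in the 16 pairs across days (0.889 to 0.969). These pairs share cultures and are given as a description. Null day 6 replicate 1 was nearest to null day 5 replicate 1 (0.969). Day 6 replicates 3 and 4 were nearest to day 6 replicate 1 (0.952 and 0.968). Of the day 5 cultures, replicate 2 was nearest to day 6 replicate 3 (0.944) and replicate 3 to day 5 replicate 1 (0.945).

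The gene with the lowest p of those that passed the filter was Zfpm2, which encodes Fog2, a cofactor of Gata factors known from the heart. Its intensities were 8.04, 8.28, 7.83 and 8.07 at day 6, against 6.86, 6.48, 5.64 and 6.93 at day 5. It was above background on all 4 day 6 arrays and on none of the day 5 arrays, at least 1.73-fold higher at day 6 (log2 fold change 1.57, SE 0.32, unadjusted p = 0.000211, adjusted p = 0.99962). Zfpm2 was above background on no other of the 16 arrays, so it passed the filter on dim probes only through the group in which it is high, and its p-values and its rank are a description. Folds written as "at least" set the day 6 mean against the higher of the dimmest signal above background and the gene's own signal on each day 5 array. In wild-type cultures Zfpm2 was above background on none of the 8 arrays, the null value was higher than wild-type at day 6 (adjusted p = 0.0141), and the day effect differed between genotypes at an unadjusted p of 0.00357. The only other gene above background on all day 6 and no day 5 null arrays (2 in all, 0.0183%) was Rcan2, which encodes a regulator of calcineurin. It had 7.38, 7.46, 7.98 and 7.48 at day 6, against 5.77, 5.68, 6.72 and 6.64 at day 5, at least 1.24-fold higher (unadjusted p = 0.0167). No gene was above background on all 4 day 5 arrays and on no day 6 array.

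Spink1, Ang and Apob, which encode secreted proteins, are a further 3 of the 114 genes with all 4 day 6 cultures above day 5. Spink1, a serine protease inhibitor, had intensities of 14.59, 13.34, 14.15 and 14.24 at day 6, against 12.91, 13.08, 10.72 and 12 at day 5 (log2 fold change 1.90, SE 0.61, adjusted p = 0.99962). Ang, a secreted ribonuclease, had 9.28, 8.46, 7.98 and 7.63 at day 6, against 6.95, 6.96, 5.30 and 6.07 at day 5 (2.02, SE 0.60). Apob, the protein core of lipoproteins, had 9.55, 7.61, 9.72 and 8.58 at day 6, against 7.59, 7.19, 6.36 and 6.80 at day 5 (1.88, SE 0.63). In each of these 3 genes replicate 3 was the lowest day 5 culture, which is also the null array with the fewest probes above background. Without replicate 3 of both days the log2 fold changes were 1.39 for Spink1, 1.83 for Ang and 1.40 for Apob. Ang belongs to a family of close copies, which a probe may not tell apart.

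Hsd11b2, which inactivates glucocorticoids, had 8.15, 9.74, 8.31 and 8.02 at day 6, against 7.09, 6.77, 5.68 and 7.54 at day 5 (log2 fold change 1.79, SE 0.55). Its other probe gave 0.88 (SE 0.59) with overlapping days. Parm1, a mucin-like membrane protein, had 10.47, 10.31, 9.42 and 9.93 at day 6, against 8.36, 8.40, 9.11 and 8.37 at day 5 (1.47, SE 0.36). Its second probe gave 1.22 (SE 0.45), again without overlap. Null means of both genes were below those of wild-type cultures, where Hsd11b2 averaged 10.82 ± 0.57 at day 6 and 10.26 ± 1.09 at day 5, and Parm1 11.99 ± 0.44 and 11.53 ± 0.80 (SD, n = 4 each). Myl3, a myosin light chain of ventricular muscle, had 8.31, 9.37, 7.13 and 7.99 at day 6, against 6.39, 5.64, 5.96 and 6.47 at day 5, where no array was above background (at least 1.92-fold higher, unadjusted p = 0.0437). In wild-type cultures the mean of Myl3 was likewise higher at day 6, 11.67 ± 1.21 against 9.84 ± 2.45 (SD, n = 4 each), and the day effects of both genotypes differed by 0.26 (unadjusted p = 0.848).

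Among genes with all 4 day 6 cultures below day 5, Slitrk5 had the largest difference of those at an unadjusted p under 0.05. This gene, which encodes a neuronal membrane protein, had intensities of 8.08, 8.57, 8.53 and 8.15 at day 6, against 9.90, 9.84, 9.71 and 9.56 at day 5 (log2 fold change -1.42, SE 0.36, unadjusted p = 0.00136, adjusted p = 0.99962). The cultures of each day lay close together, and the cultures that stood apart were the nearest across days, at 8.57 in day 6 replicate 2 and 9.56 in day 5 replicate 4. In wild-type cultures Slitrk5 averaged 9.51 ± 0.76 at day 6 and 9.83 ± 0.71 at day 5 (SD, n = 4 each). Gdf1, a TGFβ ligand that acts with Nodal, had 7.90, 8.42, 9.03 and 8.95 at day 6, against 9.50, 9.50, 9.84 and 9.92 at day 5 (-1.12, SE 0.29). Bmp7, another ligand of that family, had 7.81, 7.74, 8.13 and 8.72 at day 6, against 9.26, 8.70, 10.07 and 8.84 at day 5 (-1.12, SE 0.35), and its days overlapped only in that the highest day 6 culture, replicate 4, exceeded the lowest day 5 culture, replicate 2.

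Bcat1, a branched-chain aminotransferase, had intensities of 11.29, 11.35, 11.98 and 11 at day 6, against 12.08, 12.53, 12.75 and 12.39 at day 5 (log2 fold change -1.03, SE 0.35). Car11, a carbonic anhydrase-related protein, had 7.54, 7.86, 8.61 and 7.64 at day 6, against 8.99, 8.98, 9.10 and 8.64 at day 5 (-1.01, SE 0.23), so that day 6 replicate 3 nearly reached day 5 replicate 4. Wdr31 gave -1.16 (SE 0.27) by its brightest probe and 0.02 (SE 0.31) and -0.66 (SE 0.52) by its other probes. Acsl6, an acyl-CoA synthetase, gave -1.26 (SE 0.33) by its brightest probe and -0.44 (SE 0.33) by the other. The rest of the named genes with lower day 6 values, Maneal, Nudt12, Bcas1, Cct5, Mab21l2 and Kyat3, were dim and had log2 fold changes of -1.06 to -0.88. Of the 210 genes with a lower mean at an unadjusted p under 0.05, day 5 replicate 3 was the highest null culture in 106 (50.5%). Day 5 replicates 1, 2 and 4 were the highest in 29, 34 and 41. Of the 235 with a higher mean, day 5 replicate 3 was the lowest in 85 (36.2%). Day 5 replicates 1, 2 and 4 were the lowest in 31, 78 and 38. Choosing genes by their day difference favours a day 5 culture at that end, so shares over all genes are no reference. The part of the day 5 replicate 3 array in these differences was not tested beyond the fits that leave it out, in which 0 genes passed.

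**Figure D2:**
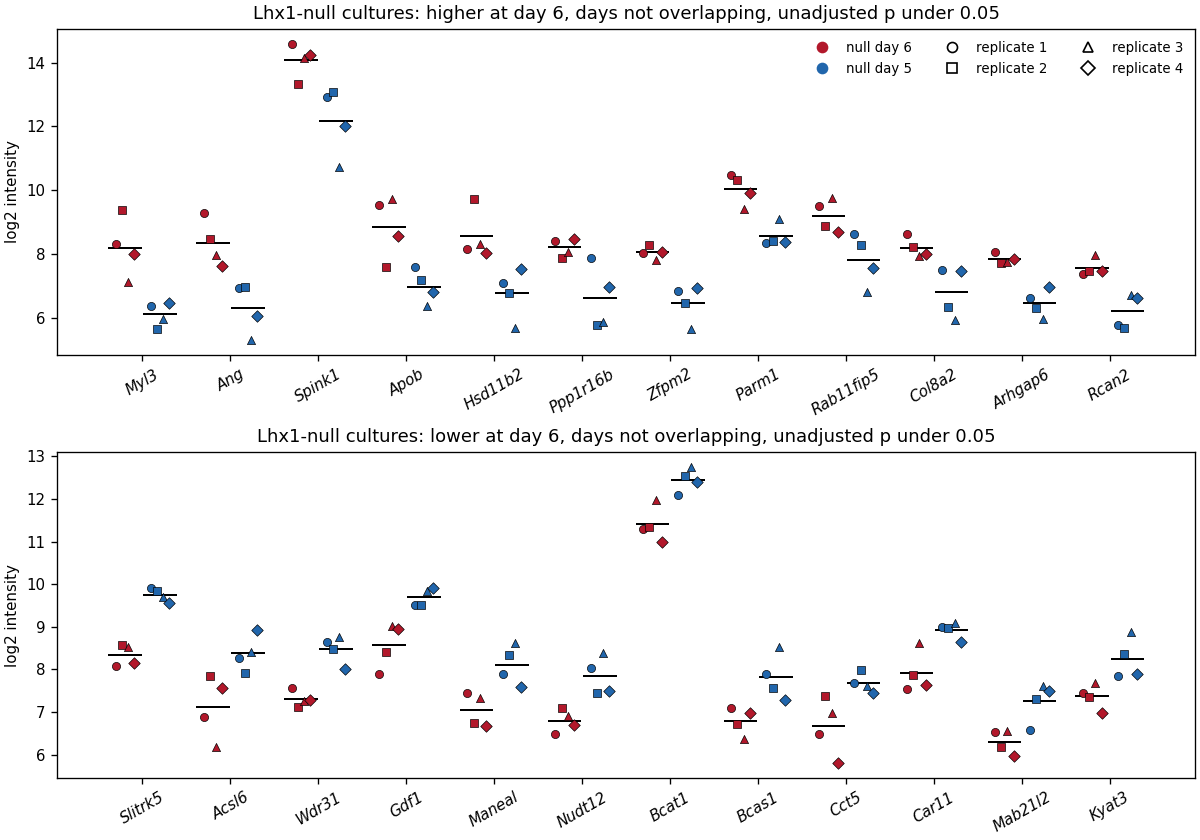
Log2 intensity of single null cultures, day 6 in red and day 5 in blue, for the 12 genes with the largest higher mean (top) and the 12 with the largest lower mean (bottom) among those at an unadjusted p under 0.05 whose days do not overlap; bars are means of 4 cultures and symbols are replicates. The lowest day 5 culture was replicate 3 in Spink1, Ang, Apob and Zfpm2, and in Slitrk5 the cultures of each day lay close together.

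Kitl, the ligand of the Kit receptor, had the lowest p for a difference of the day effect (unadjusted p = 0.000634, adjusted p = 0.99999). In null cultures it had 9.67, 9.24, 9.52 and 9.60 at day 6, against 8.16, 8.20, 8.18 and 9.33 at day 5, and the log2 fold change was 1.04 (SE 0.29). In wild-type cultures the log2 fold change was -0.77 (SE 0.29). Day 5 replicate 4, 1 of the cultures that stood apart, lay among the day 6 values, and without it and day 6 replicate 2 the null log2 fold change was 1.40. Nfatc1, a calcineurin-dependent transcription factor, gave 0.64 (SE 0.26) in null cultures and -0.75 (SE 0.26) in wild-type cultures (unadjusted p = 0.00181 for the difference).

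Genes of DE were read in null cultures on both days, with higher means at day 6 that did not pass the test. Of 17 listed DE genes on the array, 11 were above background on all 8 null arrays and 1, Epcam, on none, and 15 passed the filter. All 15 had a higher mean at day 6, with a median log2 fold change of 0.52 (0.15 to 1.37), against -0.02 over all genes, of which 46.8% were higher. In wild-type cultures the median of the same 15 genes was 0.15. None passed the test in null cultures, and 2, Foxa1 and Gata4, had an unadjusted p under 0.05 (background 2.15%). Gata4 was above background on only 1 null array, so its day difference is largely at background. In bulk cultures fewer cells of a type and less RNA per cell cannot be told apart, here and below. The list median was between 0.11 and 1.17 over all alternative fits, and 0.66 without the 2 cultures that stood apart.

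Sox17, a driver of endoderm fate, had intensities of 11.24, 9.34, 10.64 and 11.37 in null cultures at day 6, against 9.96, 9.82, 10.84 and 8.21 at day 5 (log2 fold change 0.94, SE 0.50). The days overlapped. Null means were 10.65 ± 0.93 at day 6 and 9.71 ± 1.09 at day 5, below the wild-type means of 12.29 ± 0.34 and 12.14 ± 0.33 (SD, n = 4 each), and against wild-type the difference passed at day 5 (adjusted p = 0.0459) but not at day 6 (adjusted p = 0.121). Foxa2, a pioneer factor of endoderm and midline, had 9.28, 6.45, 8.28 and 8.96 at day 6, against 7.84, 8.55, 8.84 and 5.88 at day 5 (0.47, SE 0.61). It was below background on 1 array of each day, in the cultures that stood apart. Foxa1, a related factor, had 10.81, 8.40, 10.07 and 10.97 at day 6, against 9.28, 9.02, 9.67 and 7.53 at day 5 (1.19, SE 0.55, unadjusted p = 0.0493), and its days overlapped through day 6 replicate 2.

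Among the other DE markers, Gata6 was even over null cultures, 12.67 ± 0.21 at day 6 and 12.52 ± 0.45 at day 5 (SD, n = 4 each), with a difference of 0.15 (95% interval -0.31 to 0.61). Cxcr4, the chemokine receptor used to sort DE, averaged 10.65 ± 0.89 at day 6 and 10.44 ± 0.64 at day 5. Gata4 was dim, above background on 1 day 6 array and on 0 day 5 arrays. Eomes, the T-box factor upstream of DE, had 11.22, 6.27, 11.10 and 11.18 at day 6, against 11.08, 10.29, 10.81 and 5.51 at day 5. Its 6 other null values exceeded the wild-type means of 9.69 ± 0.32 at day 6 and 10.06 ± 0.38 at day 5, and the cultures that stood apart were below background. Of the 15 DE genes, these 2 cultures were the 2 lowest of the 8 in 9 genes (60.0%, against 10.5% of all genes).

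**Figure D3:**
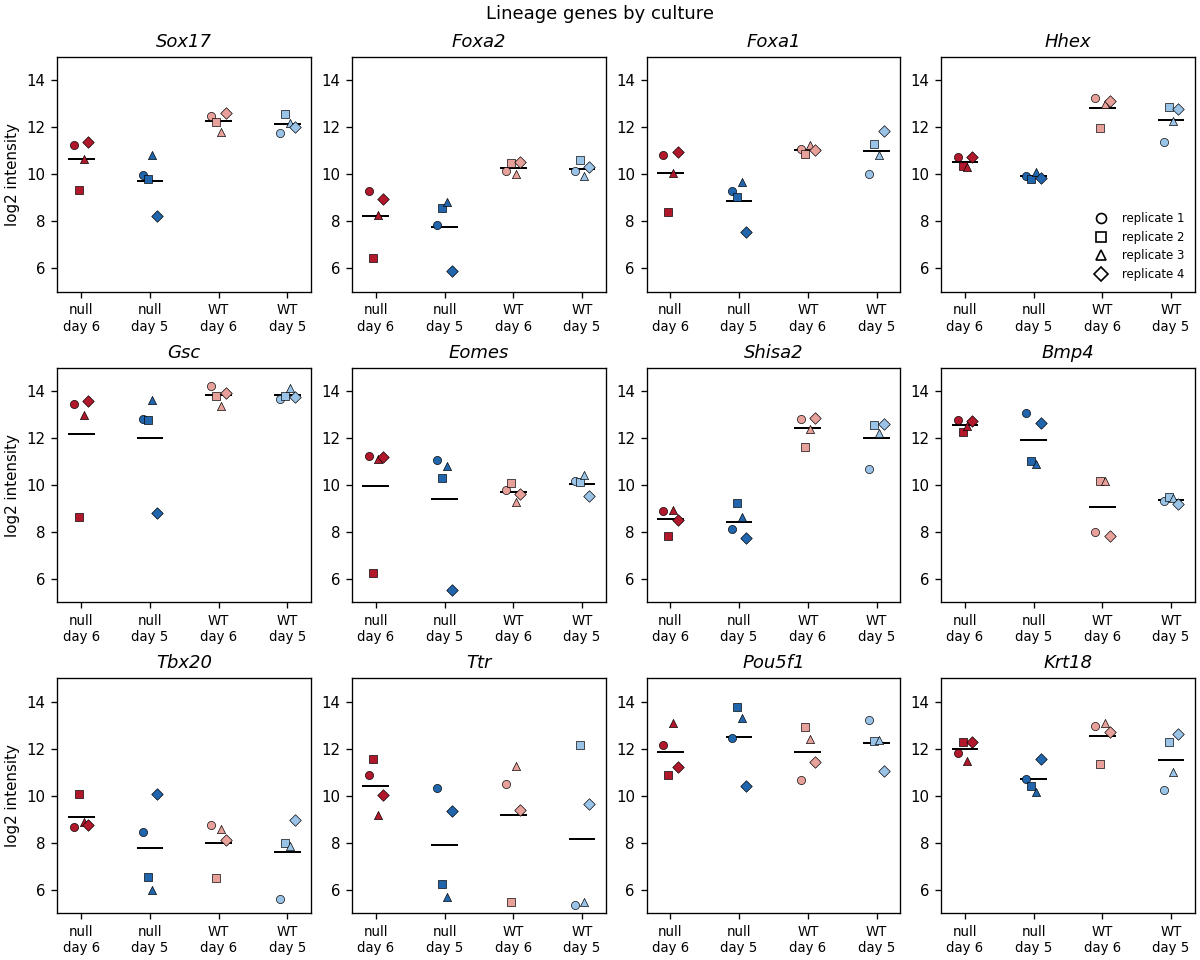
Log2 intensity of 12 lineage genes in single cultures, with null day 6, null day 5, wild-type day 6 and wild-type day 5 from left to right; bars are means of 4 cultures and symbols are replicates. In Sox17, Foxa2, Gsc and Eomes the lowest null culture of each day was replicate 2 at day 6 and replicate 4 at day 5. The null values of Hhex and Shisa2 lay below wild-type, and those of Hhex lay close together.

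Several anterior genes were lower in null than in wild-type cultures at both days, or below background. Hhex, a homeobox factor of anterior DE, had 10.76, 10.36, 10.31 and 10.75 at day 6, against 9.95, 9.79, 10.09 and 9.86 at day 5. It is the DE gene whose null days did not overlap (1 of 15, against 1.04% of all genes with day 6 above and 1.27% with day 6 below). Its log2 fold change was 0.62 (SE 0.32, adjusted p = 0.99962), against 0.53 in wild-type cultures. All 8 null values were below the wild-type means of 12.85 ± 0.60 at day 6 and 12.31 ± 0.69 at day 5 (SD, n = 4 each), and the difference from wild-type passed at both days (adjusted p = 0.00545 at day 6 and 0.00458 at day 5). Shisa2, an inhibitor of Wnt and Fgf receptors, averaged 8.54 ± 0.52 at day 6 and 8.44 ± 0.64 at day 5 in nulls, with a difference of 0.10 (95% interval -0.85 to 1.04).

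Of 16 measured genes of anterior endoderm and prechordal mesendoderm, 15 had a higher mean at day 6, with a median log2 fold change of 0.41, against 0.31 in wild-type cultures. Among these 15 are Foxd4 (0.16), above background on no null array, and Fzd8 (0.35) and Sfrp5 (1.24), each on 1. Their null day differences are thus largely at background. None passed the day test, and 0 had an unadjusted p under 0.05. Against wild-type, 9 of the 16 were called lower in nulls at day 6 and 8 at day 5. Foxd4, Fzd8 and Sfrp5 passed the filter on dim probes only through wild-type arrays. A call of any of them as lower in nulls is therefore a description. Over all genes 109 were lower (0.996%) and 63 higher (0.576%) at day 6, 172 in all (1.57%), and 54 were lower (0.494%) and 7 higher (0.064%) at day 5, 61 in all (0.558%). Hesx1, Foxd4 and Six3, homeobox and forkhead factors of the anterior, were above background on none of the 8 null arrays. On wild-type arrays Foxd4 was above background on all 8, Hesx1 on 1 of each day and Six3 on none. Cer1, a secreted Nodal and Bmp antagonist, had 10.70, 5.79, 7.30 and 9.16 at day 6, against 7.33, 7.99, 9.39 and 6.37 at day 5, and it was above background on 2 and 3 of the arrays. Gsc and Otx2 were bright in 6 of 8 null cultures, with null means below those of wild-type. Otx2 had 12.67, 8.53, 11.79 and 12.47 at day 6, against 11.19, 12.39, 12.10 and 8.81 at day 5 (0.24, SE 0.84). Each of these was below every wild-type value, whose means were 13.72 ± 0.42 at day 6 and 13.42 ± 0.35 at day 5 (SD, n = 4 each). For Otx2 the difference from wild-type did not pass (adjusted p = 0.191 at day 6 and 0.266 at day 5). Gsc had 13.46, 8.63, 12.97 and 13.57 at day 6, against 12.83, 12.77, 13.62 and 8.79 at day 5 (0.15, SE 1.05).

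The Wnt receptor gene Fzd5 had 12.01, 9.11, 11.51 and 11.20 in nulls at day 6, against 10.18, 10.98, 10.91 and 8.11 at day 5 (log2 fold change 0.91, SE 0.70), and its second probe gave 0.31 (SE 0.47). Its wild-type means were 14.32 ± 0.52 at day 6 and 14.04 ± 0.97 at day 5 (SD, n = 4 each). Over the 27 measured genes of Wnt ligands, receptors and antagonists, 16 had a higher null mean at day 6, with a median of 0.16, and none passed. These 16 include Fzd8 and Sfrp5, each above background on 1 null array. Of node, notochord and midline genes, Shh, Noto, Nog and Dand5 were above background on no null array. On wild-type arrays Shh was above background on all 4 of each day, Nog on 1 at day 6, and Noto and Dand5 on none. The 11 midline genes that were measured, Shh among them, had a median of 0.10, and 7, again with Shh, were higher at day 6.

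Of 16 listed genes of the primitive streak and nascent mesoderm on the array, 8 were above background on all 8 null arrays and 1, Mesp2, on none. Of the 15 that were measured, 7 had a higher and 8 a lower mean at day 6, with a median log2 fold change of -0.27, against -0.36 in wild-type cultures. None passed, and 0 had an unadjusted p under 0.05. The null median changed sign in 2 of 22 alternatives (-0.84 to 0.37). Evx1, a homeobox factor of the posterior streak, had 11.49, 11.06, 11.82 and 11.62 at day 6, against 12.87, 11.99, 12.26 and 10.87 at day 5 (-0.50, SE 0.52). Mesp1, a factor of nascent mesoderm, had 9.26, 6.77, 9.67 and 10.75 at day 6, against 11.53, 10.97, 10.88 and 6.02 at day 5 (-0.74, SE 1.09). Apart from the 2 cultures that stood apart, each day 6 value of Mesp1 was below each day 5 value. Wnt3a had 7.53, 5.30, 6.39 and 9.35 at day 6, against 10.07, 6.85, 10.48 and 5.32 at day 5 (-1.04, SE 1.17). The cultures that stood apart were the 2 lowest in 13 of these 15 genes (86.7%, against 10.5% of all genes), and the mean over the 15 genes was 8.01 and 7.75 there, against 10.25 to 10.97 in the other 6.

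Of 18 genes of lateral plate mesoderm and extraembryonic mesoderm on the array, 8 were above background on all 8 null arrays. In the 11 that passed the filter, 8 were higher at day 6, with a median log2 fold change of 0.67, against 0.18 in wild-type cultures, and none passed between days. Against wild-type, 4 of the 11 were called higher in nulls at day 6 and 1 at day 5. Over all genes 63 were called higher at day 6 (0.576%) and 7 at day 5 (0.064%). Bmp4, Msx1 and Pmp22, called at day 6, were above background on all arrays of both genotypes. Foxf1 and Tbx4 were above background on no wild-type array and passed the filter only through null arrays. A call of such a gene as higher in nulls is a description. Bmp4 had 12.76, 12.26, 12.50 and 12.73 at day 6, against 13.06, 11.01, 10.91 and 12.66 at day 5 (0.65, SE 0.57). The day 6 cultures were even, whereas at day 5 replicates 2 and 3 were low. Its wild-type means were 9.05 ± 1.30 at day 6 and 9.36 ± 0.13 at day 5 (SD, n = 4 each). Pmp22, a membrane protein of mesenchyme and Schwann cells, was likewise low in replicates 2 and 3 of day 5, with 12.86, 13.18, 12.82 and 13.21 at day 6, against 13.26, 11.10, 11.13 and 13 at day 5 (0.89, SE 0.46). Msx1 averaged 11.99 ± 0.33 at day 6 and 12.04 ± 0.91 at day 5. Tbx20, a T-box factor of heart and lateral plate, had 8.68, 10.07, 8.88 and 8.74 at day 6, against 8.47, 6.53, 6 and 10.09 at day 5 (1.32, SE 0.86), and its second probe gave 0.37 (SE 0.64).

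The cultures that stood apart were the 2 highest in 7 of these 11 genes (63.6%, against 12.5% of all genes), and the mean over the list was 12.27 in day 6 replicate 2 and 12.48 in day 5 replicate 4. In the other 6 it was 10.74, 10.98 and 10.70 at day 6, against 11.12, 9.52 and 9.49 at day 5. Without the 2 cultures Tbx4, at -0.87 in the main fit, no longer passed the filter. The genes left had a list median of 1.07, and 9 of them were higher at day 6. Tbx4, a T-box factor of the allantois and hindlimb, was high in that pair, with 6.49, 11.97, 7.76 and 5.63 at day 6, against 7.88, 7.48, 7 and 12.94 at day 5. In the 7 measured Hox and Cdx genes these 2 cultures were also the 2 highest in 6. Hoxb1, the exception, had 5.76, 5.62, 5.57 and 7.47 at day 6, against 9.06, 6.27, 8.92 and 5.97 at day 5, and was above background in 1 day 6 and 2 day 5 cultures.

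Of 12 measured genes linked to mesenchyme or to the transition of epithelium into it, 8 were higher at day 6 in nulls, with a median of 0.58, against -0.28 in wild-type cultures. Cd44, the hyaluronan receptor, had 10.51, 12.44, 11.34 and 10.31 at day 6, against 9.66, 7.88, 8.45 and 12.06 at day 5 (log2 fold change 1.64, SE 0.73, unadjusted p = 0.0398, adjusted p = 0.99962). Without the cultures that stood apart it was 2.04. Runx1, a transcription factor of blood formation, had 9.43, 9.17, 8.63 and 8.99 at day 6, against 8.92, 6.39, 6.18 and 8.03 at day 5 (1.67, SE 0.64). Mef2c, a factor of heart and muscle, had 9.06, 9.79, 8.91 and 9.24 at day 6, against 7.93, 7.41, 7.78 and 9.56 at day 5 (1.08, SE 0.42). Both overlapped between days through 1 culture of day 5 that was high, replicate 1 for Runx1 and replicate 4 for Mef2c.

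Of 19 genes of blood and endothelium on the array, 3 were above background on all 8 null arrays (Etv2, Lmo2 and Egfl7), each also on all 8 wild-type arrays, and 0 were above background on no null array. Tek was above background on 3 null arrays at day 6 and 4 at day 5. Of 18 neural and ectoderm genes, 4 were above background on all 8 null arrays (Sox11, Nes, Pou3f1 and Tfap2c) and 8 on none. Among the defining markers of these and other cell types, Tal1 was above background on 1 null array of each day, Hand1 likewise, Pecam1 on 1 at day 6 and 2 at day 5, and Kdr on 2 of each day. Nkx2-5, Afp, Sox1 and Pax6 were above background on no null array, and Myl7 on 2 at day 6 and 1 at day 5. Of the 14 cardiac genes on the array, 7 were above background on no null array and 1 on all 8. In the 6 that were measured the median day difference was 0.72 in nulls, against 1.29 in wild-type cultures.

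Genes of visceral and parietal endoderm had the largest median of the 22 lists plotted by list. On the array were 21 listed genes, of which 4 were above background on all 8 null arrays and 6 on none. Trf, which did not pass the filter, was above background on 2 null arrays at day 5 and 0 at day 6. All 13 that were measured had a higher null mean at day 6, with a median log2 fold change of 1.02, against 0.09 in wild-type cultures, and 1 of 13, Apob, had an unadjusted p under 0.05 (background 2.15%). None passed. Ttr, transthyretin, had 10.88, 11.58, 9.20 and 10.01 at day 6, against 10.35, 6.25, 5.70 and 9.37 at day 5 (2.50, SE 1.58). It was above background on all 4 day 6 arrays and on 2 day 5 arrays. Apoa1, an apolipoprotein, had 9.08, 6.46, 10.10 and 7.93 at day 6, against 7.51, 6.36, 6.08 and 5.84 at day 5 (1.95, SE 1.10). Afp, the defining marker of visceral endoderm, was above background in none of these cultures, and Amn averaged 8.66 ± 1.51 at day 6 and 7.64 ± 1.08 at day 5 (SD, n = 4 each). The mean over the 13 genes was 10, 10.15, 9.55 and 8.82 at day 6, against 9.31, 7.78, 7.71 and 9.01 at day 5, so the days overlapped through day 5 replicates 1 and 4. The list median was 1.00 without the cultures that stood apart and between 0.64 and 1.61 over all alternative fits.

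**Figure D4:**
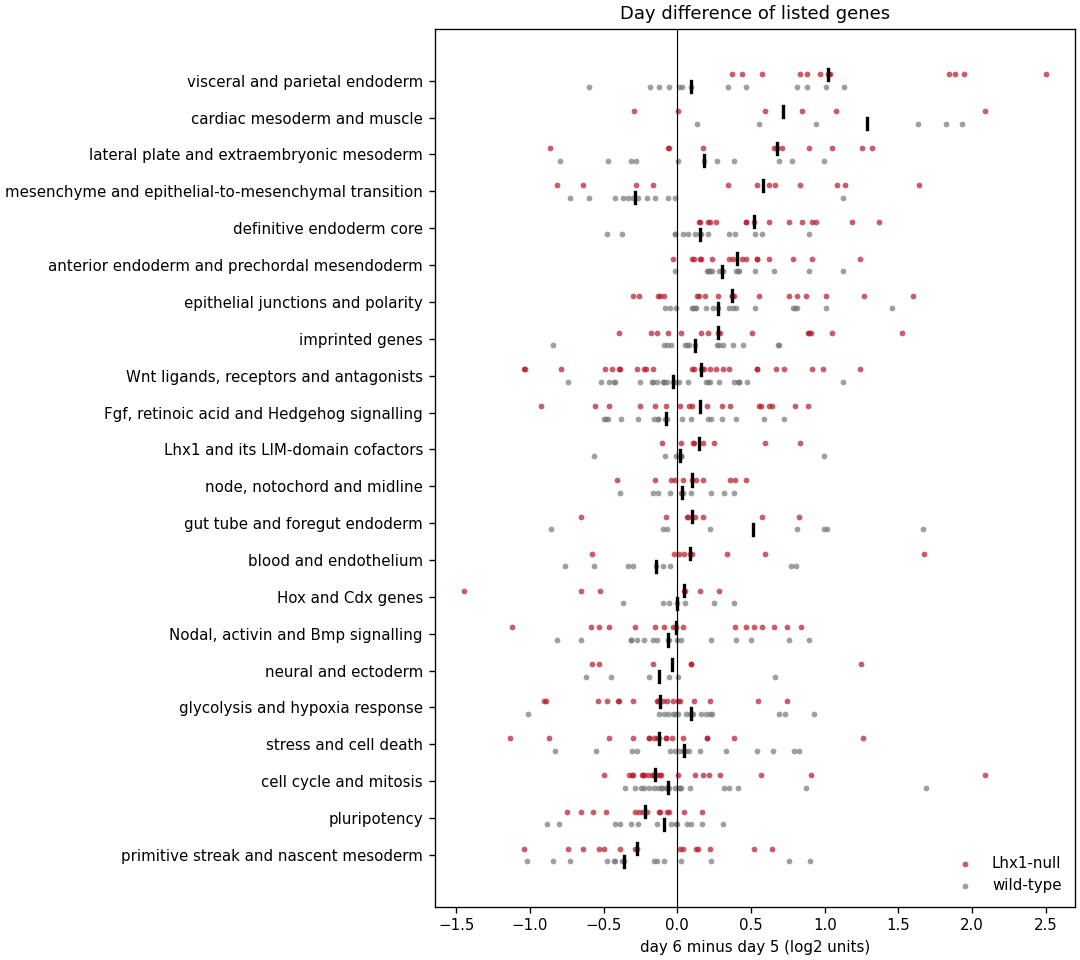
Log2 difference of day 6 minus day 5 for the measured genes of 22 lists, with null cultures in red above wild-type cultures in grey; bars are list medians, and lists are ordered by the null median. The null medians were 1.02 for visceral and parietal endoderm and 0.52 for DE, and -0.22 for pluripotency and -0.27 for the primitive streak, and no gene passed the test in either genotype.

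Pluripotency genes were read in null cultures at both days. Of 14 measured, 12 had a lower mean at day 6, with a median log2 fold change of -0.22, against -0.09 in wild-type cultures, and none passed or had an unadjusted p under 0.05. The null median changed sign in 1 of 22 alternatives (-0.61 to 0.25). Pou5f1, which encodes Oct4, had 12.18, 10.89, 13.11 and 11.21 at day 6, against 12.46, 13.78, 13.33 and 10.42 at day 5 (-0.65, SE 0.73). Nanog averaged 10.39 ± 0.73 at day 6 and 10.96 ± 1.49 at day 5 (SD, n = 4 each), near the wild-type means of 10.13 ± 0.85 and 10.45 ± 0.84. Zfp42, a marker of naive ES cells, had 8.35, 9.88, 11.65 and 6.05 at day 6, against 7.95, 12.78, 8.26 and 7.78 at day 5. The mean over the 14 genes was highest in day 5 replicate 2, at 12.30, and in day 6 replicate 3, at 11.48, and lay between 9.68 and 10.97 in the other null cultures.

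Keratins of simple epithelium had higher means at day 6 in both genotypes. Krt8 had 13.49, 13.56, 13.07 and 13.86 in nulls at day 6, against 12.54, 12.32, 12.46 and 13.16 at day 5 (log2 fold change 0.87, SE 0.31). Its partner Krt18 had 11.80, 12.29, 11.49 and 12.30 at day 6, against 10.71, 10.40, 10.14 and 11.56 at day 5 (1.27, SE 0.51). Each overlapped between days only through day 5 replicate 4. Without that culture and day 6 replicate 2 the log2 fold changes were 1.03 for Krt8 and 1.44 for Krt18, and neither passed. In wild-type cultures they were 0.80 and 1.01. Of 19 measured genes of epithelial junctions and polarity, 14 were higher at day 6 in nulls (median 0.37) and 16 in wild-type cultures (median 0.27). Ocln, Spint2 and Crb3 are among the 19 and were above background on no null array.

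The other lists had null medians between -0.15 and 0.27. Those of Nodal, Wnt, glycolysis, stress and midline genes changed sign in 1 to 7 of 22 alternatives. The median of Hox and Cdx genes changed sign in 12 of 21, and that of imprinted genes in 0 of 22. Of 17 measured genes of Nodal, activin and Bmp signalling, 8 had a higher null mean at day 6 (median -0.01), and Bmp7 had the lowest log2 fold change. Of 18 genes of Fgf, retinoic acid and Hedgehog signalling, 12 were higher (median 0.15), among them Shh, which was above background on no null array. In 22 genes of the cell cycle 8 were higher (median -0.15), in 18 of glycolysis and hypoxia 6 (median -0.11), in 17 of stress and cell death 5 (median -0.12), and in 15 imprinted genes 11 (median 0.27). Lhx1 and its LIM-domain cofactors had a median of 0.15 over 8 genes, and Ldb1, the cofactor that bridges LIM factors, differed by 0.12 (SE 0.15).

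The genes of largest spread among null cultures of 1 day were low in some cultures and bright in others, in an order that the day did not give. In Pga5 and Fgf5 the cultures that stood apart were the lowest null cultures, and in Tbx4 and Plac1 the highest. Adamts9, a secreted metalloprotease, had 11.33, 12.51, 11.81 and 5.90 at day 6, against 12.24, 11.40, 5.78 and 5.72 at day 5. The probes ILMN_1224237 and ILMN_1259641 were lowest in the same cultures as Adamts9, day 6 replicate 4 and day 5 replicates 3 and 4. Csrp1, a LIM-domain protein of muscle and stroma, had 12.30, 12.40, 5.43 and 10.99 at day 6, against 5.69, 5.53, 9.71 and 11.75 at day 5. Plk1, a mitotic kinase, had 11.90, 12.16, 12.07 and 6.90 at day 6, against 6.96, 12.28, 9.01 and 6.42 at day 5. Same-numbered cultures of both days thus held opposite levels, such as replicate 1 of Csrp1 and of Plk1. Plk1 spread as widely in wild-type cultures (SD within a day 2.61 in null and 3.12 in wild-type). For Adamts9 the SD was 3.28 in null and 0.51 in wild-type cultures, and for Csrp1 3.19 and 0.88. A second probe of Adamts9 gave a log2 fold change of 0.80 (SE 0.49), against 1.60 (SE 1.52) by the probe above. Uap1, named after its values were seen, had the highest log2 fold change of all genes, 2.59 (SE 1.15, unadjusted p = 0.0413), with 10.05, 10.89, 10.76 and 8.44 at day 6, against 7.27, 10.59, 5.51 and 6.42 at day 5.

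**Figure D5:**
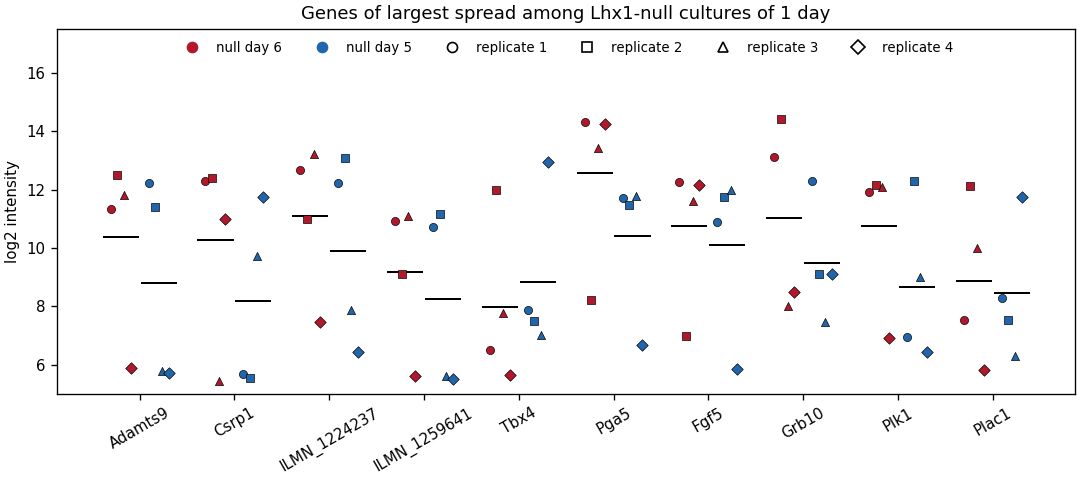
Log2 intensity of the 10 genes with the largest SD among null cultures of 1 day (pooled over both days), day 6 in red and day 5 in blue; bars are means of 4 cultures and symbols are replicates. Adamts9 and Csrp1 were above 9 in some cultures of each day and below 6 in others.

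Grb10, an imprinted adaptor of growth factor receptors, had 13.12, 14.41, 8.01 and 8.50 at day 6, against 12.28, 9.12, 7.45 and 9.09 at day 5, whereas wild-type means were 14.53 ± 0.65 at day 6 and 14.16 ± 0.68 at day 5 (SD, n = 4 each). The Y-linked gene Eif2s3y was above background in null day 6 replicates 1 and 2, at 8.93 and 8.59, and in null day 5 replicate 1, at 9.25. It lay between 5.25 and 6.33 in the other 5. On wild-type arrays Eif2s3y was above background on all 4 of each day. The pair of cultures that stood apart differed in it, with 8.59 in day 6 replicate 2 and 5.82 in day 5 replicate 4. Of the other Y-linked genes on the array, Uty was above background on 0 null arrays at day 6 and 1 at day 5, and Kdm5d and Usp9y on none. On wild-type arrays Uty was above background on 2 at day 6 and 1 at day 5. The X-linked gene Xist was above background on 1 null array of each day and on no wild-type array. The part of sex-linked differences in the day difference and in the differences from wild-type was not tested.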

How the data were processed

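Illumina Mouse WG-6 v2 bead arrays read the RNA of 16 DE cultures. The authors deposited probe intensities without normalization or background subtraction, each with a detection p-value from GenomeStudio (version not given in the sources used here). They also deposited rank invariant normalized intensities, used here as an alternative.

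Here the intensities without normalization were corrected and quantile-normalized by neqc of limma 3.58.1 (R 4.3.3), with an offset of 16, on the log2 scale. Of 45281 probes, 15593 had a detection p under 0.01 on 4 or more of the 16 arrays and were kept, and the brightest probe stood for each symbol of the platform annotation (34885 probes with 1 symbol, 18 with several, 10378 with none). limma was fitted once over all 16 arrays with a mean per group and a variance per gene pooled over the groups. It gave day 6 minus day 5 in each genotype and the difference of these. Adjusted p-values are by Benjamini-Hochberg over 10939 genes. The 8 null arrays alone, other background corrections, scalings and filters, weights, a replicate block and fits without single cultures were alternatives. The 23 gene lists hold 423 genes, of which 269 were measured. Named genes are the 12 largest differences in each direction at an unadjusted p under 0.05 without overlap, per list the 2 largest differences and 3 brightest members, Lhx1, genes the paper names, the 5 lowest p of the genotype difference, the 10 largest SDs within a day, and the cell type markers. Members and lists were chosen with earlier results of these data known. The fit was checked on simulated data. Replicate numbers do not pair cultures by the labels.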

Additional observations from a re-analysis of the deposited data

Results flagged for a closer look

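In 124 groups of 4 null cultures, those of the 61 named genes described and of the probes above background at each day, 15 had 1 culture far from the other 3 by Dixon's test. Chance flags about 1 in 20 groups of unselected, independent values, which is no reference here, since some genes were named for a large SD or after their values were seen and many share the same far cultures. Values are log2 intensities. Null day 6 replicate 2 was the far culture for Hsd11b2 (9.74, the others 8.02 to 8.31), Gsc (8.63, the others 12.97 to 13.57), Eomes (6.27, the others 11.10 to 11.22) and Tbx20 (10.07, the others 8.68 to 8.88). Null day 5 replicate 4 was the far culture for Lhx1 (8.15, the others 13.43 to 14.49), Eomes (5.51, the others 10.29 to 11.08), Mesp1 (6.02, the others 10.88 to 11.53), Tbx4 (12.94, the others 7 to 7.88) and Kitl (9.33, the others 8.16 to 8.20). These 2 cultures account for 9 of the 15.

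Null day 5 replicate 3 was high in Parm1 (9.11, the others 8.36 to 8.40) and Cops8 (7.18, the others 6.05 to 6.10). Null day 5 replicate 2 was high in Zfp42 (12.78, the others 7.78 to 8.26). Null day 6 replicate 4 was low in Plk1 (6.90, the others 11.90 to 12.16) and high in Hoxb1 (7.47, the others 5.57 to 5.76), and null day 6 replicate 3 was high in Rcan2 (7.98, the others 7.38 to 7.48).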

How the results depend on the processing

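The null count of 0 was kept in 21 of 22 alternatives, with 258 to 1235 genes at an unadjusted p under 0.05. Without the 2 null day 6 cultures of conflicting labels it was 1, Cops8, a signalosome subunit named after its values were seen (log2 fold change 4.60, adjusted p = 0.0055). Cops8 had 11.01, 10.85, 5.33 and 5.91 at day 6, against 6.05, 6.09, 7.18 and 6.10 at day 5, so that fit keeps its 2 bright cultures. Leaving out 1 null culture at a time gave 0 to 0 genes, with a lowest adjusted p of 0.282 without null day 6 replicate 3. The wild-type count was 1 without a filter on dim probes (ILMN_1223534). The difference between genotypes stayed at 0 genes, and its lowest adjusted p was 0.0702.

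A replicate block by number left 0 genes past the test (300 at an unadjusted p under 0.05, 88 for the difference between genotypes). Deviations of same-numbered null cultures correlated at -0.32 to 0.38, and 1 of 4 correlated best with its own number. Neither these values nor the labels pair the cultures, and whether same-numbered cultures share a line or a step of processing was not tested. In the 8 null arrays alone 0 of 10164 genes passed, with a lowest adjusted p of 0.237. Without null day 6 replicate 2 and null day 5 replicate 4, 633 genes had an unadjusted p under 0.05, and 0 passed. In the null arrays alone without these cultures 606 had such a p and 0 passed. This fit, and one without replicate 3 of both null days (263 genes), were chosen after seeing the data. Signs of 157 named genes changed most often without null day 5 replicate 4 (24 of 156), and 13 changed with rank invariant values. Without background correction the differences of dim genes shrank, for Zfpm2 to 0.73. Zfpm2 was not tested in fits without a day 6 culture, where it was above background on too few arrays. The precision is set by 4 cultures per day and, for dim genes, by signal over background.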
